A study of Rattus norvegicus with 23 samples.

Results

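The genes described here are 8 members of the pathways by which circulating cytokines reach the brain: the receptor genes Il1r1, Tnfrsf1a and Il6st, the transcription factor gene Stat3 and its feedback inhibitor Socs3, the NF-kappaB inhibitor Nfkbia, and the cyclooxygenases Ptgs1 and Ptgs2. They were chosen by symbol, with earlier results of these data known. Every probe set of the array whose only annotated symbol was one of these 8 was taken. That gave 15 of the 31099 probe sets and 8 of the 14218 genes with a symbol of their own on a probe set. Il1r1 had 3 probe sets, Il6st 4, Stat3 2 and Ptgs1 2, and the other 4 genes had 1 each.

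RNA came from the area postrema of male rats and was measured on 23 rat genome arrays made by Affymetrix, each holding the pooled tissue of 5 animals. SHR, the spontaneously hypertensive rat, and WKY, the Wistar Kyoto rat that usually serves as its normotensive comparison, had 5 arrays each from animals of 10 to 13 weeks, with no treatment given in the labels. Sprague Dawley rats of 10 to 12 weeks had 4 control arrays, 5 arrays after 48 h of fasting and 4 arrays after 72 h of dehydration. The pools hide the spread between animals, and SHR and WKY differ in ancestry at more loci than those that bear on blood pressure.

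The area postrema lies at the floor of the fourth ventricle and has fenestrated capillaries, so that hormones, toxins and cytokines in the blood can reach its cells. Interleukin-1 binds the receptor encoded by Il1r1 and tumour necrosis factor the receptor encoded by Tnfrsf1a. Both receptors lead to the breakdown of the inhibitor encoded by Nfkbia and free NF-kappaB, which induces Ptgs2 and also Nfkbia itself. Interleukin-6 and its relatives signal through gp130, the product of Il6st, and through the Jak kinases to Stat3, which induces Socs3, the protein that then damps the same receptor. Prostaglandins made by the cyclooxygenases at the blood-brain interface are known for their part in fever and in the sickness response.

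Signals below are in the scaled units of the deposited table, in which the median probe set of an array lay between 39.81 and 44.48. Array replicates of a group were alike, with correlations between 0.9706 and 0.9853 over the probe sets kept. The labelled tissue could be checked on 6 genes that mark the area postrema and that had a probe set. Over the 23 arrays the calcitonin receptor gene Calcr ran from 95.6 to 166 on its brighter probe set and from 20.7 to 50.6 on its dimmer one. The calcium-sensing receptor gene Casr ran from 162.1 to 299.8. The catecholamine enzyme genes Dbh and Th ran from 183.4 to 372.8 and from 246.1 to 428.2. Ramp3 ran from 51.8 to 87.5, and Glp1r was dim, at 19.5 to 49.3. Choroid plexus and ependyma markers summed to between 272.6 and 8315.7 per array and varied most among the Sprague Dawley arrays. Of the 6 measured markers of neutrophils and lymphocytes, S100a8, S100a9, Cd79b and Nkg7 lay below 20 on every array and the others did not. The 6 summed to between 32.2 and 81.3 per array.

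The stretch upstream of the gene start is shown for Il1r1, Stat3 and Ptgs2, which had a probe set that differed between SHR and WKY. It is also shown for Nfkbia, whose arrays fell in the same order as those of Ptgs2 in 3 of the 5 groups. Each is the 250 bases before the start in RefSeq on build GRCr8, written 5′ to 3′ on the strand of the gene, with a match to the NF-kappaB consensus in capitals. The windows are chr9:50034133-50034382 on the plus strand for Il1r1, chr10:86363360-86363609 on the minus strand for Stat3, chr13:64713813-64714062 on the plus strand for Ptgs2 and chr6:78597073-78597322 on the minus strand for Nfkbia.
Il1r1: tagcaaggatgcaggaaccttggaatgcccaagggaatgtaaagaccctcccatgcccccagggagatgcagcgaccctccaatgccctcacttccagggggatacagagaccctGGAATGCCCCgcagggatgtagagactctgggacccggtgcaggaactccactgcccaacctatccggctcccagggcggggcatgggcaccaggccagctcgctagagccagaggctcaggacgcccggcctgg
Stat3: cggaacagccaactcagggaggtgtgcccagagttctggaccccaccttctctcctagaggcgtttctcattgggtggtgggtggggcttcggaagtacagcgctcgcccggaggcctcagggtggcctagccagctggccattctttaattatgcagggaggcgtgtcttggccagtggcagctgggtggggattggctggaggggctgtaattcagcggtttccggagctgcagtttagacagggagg
Ptgs2: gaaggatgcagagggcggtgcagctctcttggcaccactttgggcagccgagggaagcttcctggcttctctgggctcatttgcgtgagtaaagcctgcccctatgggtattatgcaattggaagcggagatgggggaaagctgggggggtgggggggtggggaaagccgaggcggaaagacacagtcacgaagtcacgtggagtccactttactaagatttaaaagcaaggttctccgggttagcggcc
Nfkbia: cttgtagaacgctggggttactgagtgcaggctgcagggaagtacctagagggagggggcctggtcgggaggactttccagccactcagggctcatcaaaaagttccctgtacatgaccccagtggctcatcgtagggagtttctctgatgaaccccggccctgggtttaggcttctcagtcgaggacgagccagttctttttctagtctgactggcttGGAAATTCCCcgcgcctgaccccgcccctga
Both strands of these windows were searched for the STAT consensus TTCNNNGAA and for the NF-kappaB consensus, and no match of one overlapped a match of the other. The STAT letters were in 0 of the 8 member windows and in 7.67% of the 33469 windows of this length in the table. The NF-kappaB consensus was in 3 of the 8, those of Il1r1, Socs3 and Nfkbia, and in 6.33% of all windows. The Nfkbia match lay 31 to 22 bases before the start and the Il1r1 match 135 to 126 bases before it. A match describes the letters only, and both motifs were chosen after the sequences had been read.

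SHR and WKY differed at 1 probe set in each of 3 of the 8 genes. Stat3 1370224_at, Il1r1 1392946_at and Ptgs2 were each lower in SHR, by 1.89, 1.6 and 1.5 times on the log2(signal + 16) scale. The other Stat3 probe set, 1371781_at, did not pass, with a log2 difference of 0.04 (limma adjusted p = 0.945). Of the 11 member probe sets bright enough to test, 3 passed an adjusted p of 0.05, where 5.06% of all 18625 probe sets tested passed and 2.88% passed as lower. The same 3 were those whose arrays did not overlap between the strains, against 6.33% of all probe sets. The difference was negative at 9 of the 11, with a median of -0.17 on the log2 scale, against 0.005 over all probe sets. The members were chosen with earlier results of these data known, so these shares do not test the pathways. The filter left out 4 dim probe sets, namely 2 of Il1r1, 1 of Ptgs1 and that of Socs3, so the counts do not cover them. Each call rests on 1 probe set. The place of its probes on the transcript and their match to each strain were not examined. The signals are therefore given by probe set and not as the RNA of a whole gene. In bulk tissue, fewer cells of a type and less RNA per cell cannot be told apart either.

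**Figure D1:**
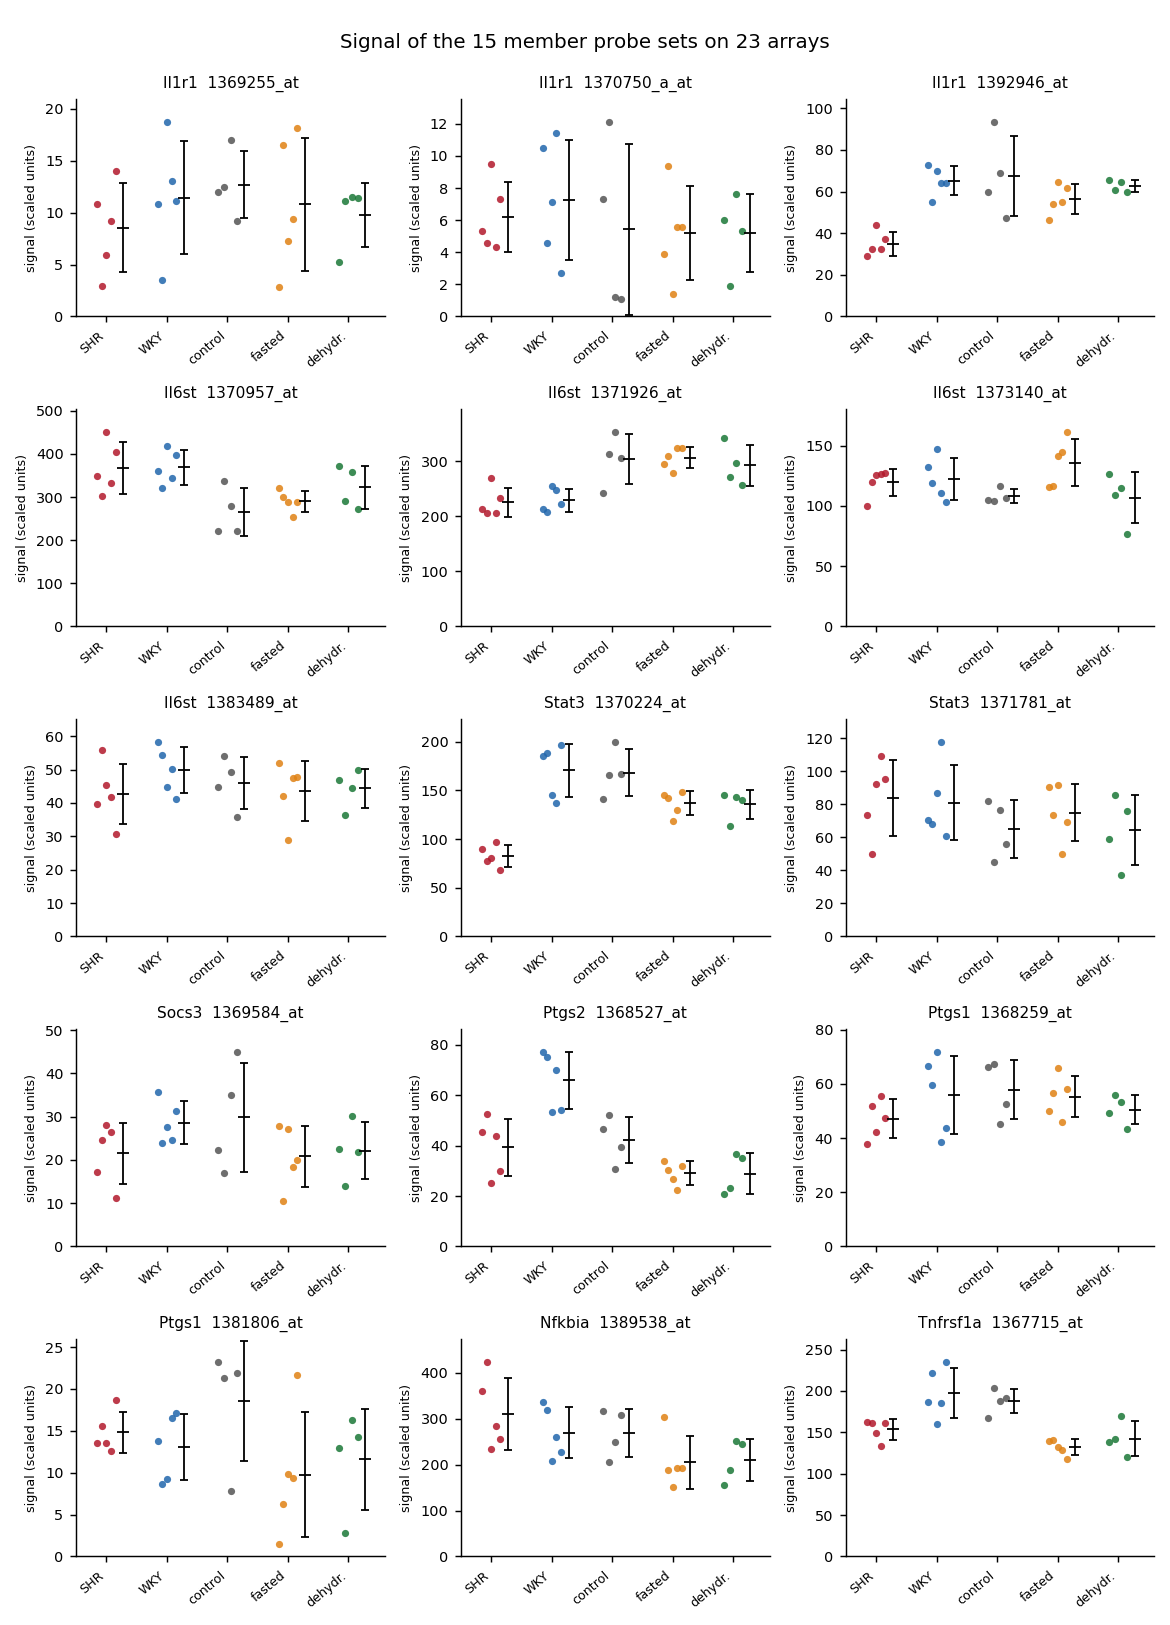
Signal (scaled units, linear axis from 0) of the 15 probe sets of the 8 genes, 1 point per array, for SHR, WKY and Sprague Dawley control, fasted and dehydrated arrays, with a horizontal mark at the mean and bars of 1 SD. SHR arrays lie apart below the other 4 groups at Stat3 1370224_at and Il1r1 1392946_at, and WKY arrays lie apart above the others at Ptgs2.

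Among the receptors, Il1r1, which encodes the signalling receptor for interleukin-1, was read by 1 bright probe set, 1392946_at. It gave 29.2, 32.3, 43.8, 32.4 and 37.2 on the SHR arrays and 72.7, 54.9, 70.1, 64.3 and 64.3 on the WKY arrays. The highest SHR array lay below the lowest WKY array. The means were 35 ± 5.7 and 65.3 ± 6.9 (SD, n = 5 each), a log2 difference of -0.68 (SE 0.1, limma adjusted p = 0.000356). Its other probe sets were dim. Probe set 1369255_at had a mean of 8.6 in SHR and 11.4 in WKY, and 1370750_a_at of 6.2 and 7.3, and the strains overlapped at both.

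Tnfrsf1a, which encodes the main receptor for soluble tumour necrosis factor, gave 162.2, 161.8, 148.6, 133.2 and 161.4 in SHR. Its WKY arrays gave 186.3, 221.1, 159.5, 184.9 and 234.8. A single WKY array, number 3, fell within the SHR range. The log2 difference was -0.32 (SE 0.093) and missed the threshold in limma at an adjusted p of 0.0533. Without WKY array 3 the difference was -0.39 with an adjusted p of 0.0161, the lowest of 21 alternative fits. It passed in 3 of these 21, and the highest adjusted p was 0.156.

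Il6st, which encodes the gp130 subunit shared by the receptors of the interleukin-6 family, did not pass at any of its 4 probe sets. On its probe set 1370957_at SHR arrays ran from 301.4 to 450.4 and WKY arrays from 320.2 to 419.2, with means of 367.4 ± 59.4 and 368.8 ± 40. The log2 differences of the 4 probe sets were -0.01, -0.03, -0.03 and -0.17, with SE between 0.082 and 0.116. All 4 lay nearer to 0 than the differences of Il1r1 1392946_at and Stat3 1370224_at.

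Stat3 encodes the transcription factor that gp130 receptors activate, and its 2 probe sets gave unlike results. Probe set 1370224_at gave 89.6, 77.1, 80.5, 96.7 and 67.8 on the SHR arrays and 185, 188.7, 145.1, 136.9 and 196.2 on the WKY arrays. The strains were apart, with the lowest WKY array well above the highest SHR array. The means were 82.3 ± 11.2 and 170.4 ± 27.3, and the log2 difference was -0.92 (SE 0.105, limma adjusted p = 2.06e-05). Probe set 1371781_at gave 73.8, 49.7, 92.1, 109.4 and 95.2 in SHR against 70.7, 68.1, 87.2, 117.7 and 60.9 in WKY. There the ranges of the strains overlapped, and the difference was 0.04 (SE 0.174, limma adjusted p = 0.945). Over the 23 arrays the 2 probe sets correlated at r = -0.29, and at -0.33 after each group was centred on its mean.

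The unlike behaviour of the Stat3 probe sets was tested on the arrays themselves. The log2 ratio of 1370224_at to 1371781_at, with 16 added to both signals, was 0.24, 0.5, -0.16, -0.15 and -0.41 on the SHR arrays. On the WKY arrays it was 1.21, 1.28, 0.64, 0.19 and 1.46. Only WKY array 4 fell into the range of SHR. The mean ratio was 0.00 ± 0.36 in SHR and 0.96 ± 0.53 in WKY, a difference of -0.96 (two-sided exact permutation test over the 252 splits of 10 arrays, p = 0.0238, smallest possible 0.00794). The ratio has meaning here only as a difference between strains, since levels of different probe sets are not comparable. With each array left out in turn the difference lay between -1.15 and -0.83.

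**Figure D2:**
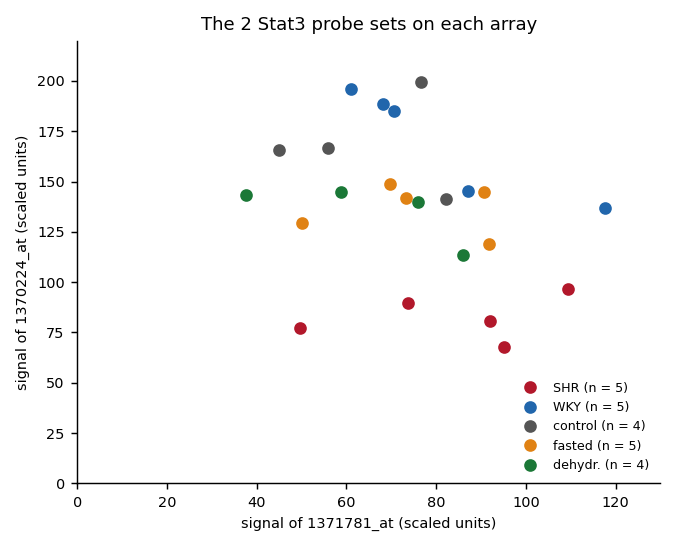
Signal of Stat3 probe set 1370224_at (vertical axis, scaled units) against that of 1371781_at (horizontal axis, scaled units), 1 point per array and a colour per group. The 5 SHR points lie lowest on the vertical axis, at 67.8 to 96.7, while on the horizontal axis they spread from 49.7 to 109.4, as the WKY points do from 60.9 to 117.7.

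Socs3, the feedback inhibitor that Stat3 induces, was dim and was left out by the filter. It gave 17.3, 24.7, 28, 26.5 and 11.2 in SHR and 35.7, 23.9, 27.7, 24.5 and 31.4 in WKY, and the groups overlapped. In the fit with no filter its log2 difference was -0.27 (SE 0.14, adjusted p = 0.457).

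Nfkbia, which encodes the inhibitor that holds NF-kappaB in the cytoplasm, was among the brighter members. It gave 359.8, 423.6, 234.6, 283.4 and 256.4 in SHR and 336.5, 318.5, 208.1, 259.5 and 227.7 in WKY. The arrays spread widely within each strain and overlapped between them. The log2 difference was 0.19 (SE 0.167, adjusted p = 0.648), and it was 1 of only 2 positive values among the 11 tested.

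Ptgs2 encodes the inducible cyclooxygenase. It gave 45.4, 52.4, 25.1, 43.8 and 29.8 on the SHR arrays and 77.1, 75.1, 53.2, 69.9 and 54.2 on the WKY arrays. The strains did not overlap, though the gap between the highest SHR array and the lowest WKY array was under 1 unit. The means were 39.3 ± 11.4 and 65.9 ± 11.4, a log2 difference of -0.58 (SE 0.139, limma adjusted p = 0.0184). This call rested on few arrays. The adjusted p was 0.0509 without SHR array 3, 0.0515 without SHR array 5, 0.057 without WKY array 1, 0.0543 without WKY array 2 and 0.0611 on arrays 2 to 5 of each strain, an alternative chosen after seeing the data.

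Ptgs1, the constitutive cyclooxygenase, gave 37.7 to 55.6 in SHR and 38.4 to 71.7 in WKY on probe set 1368259_at, and the ranges overlapped. The log2 difference was -0.18 (SE 0.131, adjusted p = 0.555). Its probe set 1381806_at was dim, at 14.8 ± 2.4 in SHR and 13 ± 4 in WKY.

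**Figure D3:**
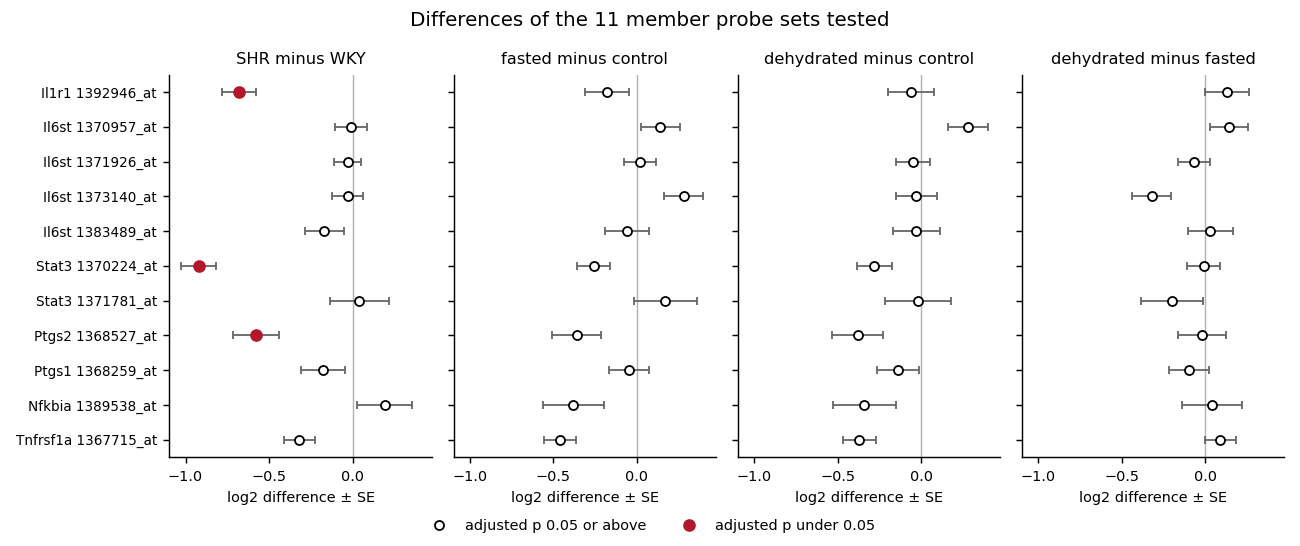
Log2 difference (points) with its SE (bars) for the 11 member probe sets tested, in the 4 comparisons, with filled points for an adjusted p under 0.05. The 3 filled points, Stat3 1370224_at at -0.92, Il1r1 1392946_at at -0.68 and Ptgs2 at -0.58, are all in the comparison of SHR with WKY.

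Some markers of other cells differed between the strains. Of 12 tested microglia and macrophage markers, Aif1, C1qa and C1qc fell in SHR, where 2.88% of all probe sets passed as lower. Differences were negative at 11 of them, against 48.3% of all probe sets, with a median of -0.22. The summed signal of this list ran from 2092.1 to 2726.3 in SHR and, with overlap, from 2614 to 3103 in WKY. Of 9 tested fibroblast and meningeal markers, Col1a2, Igf2 and Fmod fell in SHR, against the same 2.88%. The sums were 4287.5 to 5292.2 in SHR against 5260.2 to 6468.9 in WKY, again with overlap. None of the 6 tested endothelial markers passed, and their sums, 505.3 to 554.7 in SHR, lay within the 470.1 to 660.2 of WKY. The part of these cells in the lower Il1r1, Stat3 and Ptgs2 signals was not tested. The arrays also carry control probe sets at both ends of the Gapdh transcript, and the log2 of their 3′ over 5′ signal, a measure of RNA integrity and amplification, was 0.208 ± 0.134 in SHR and 0.126 ± 0.074 in WKY. With that ratio as a covariate Stat3 and Il1r1 passed, and the adjusted p of Ptgs2 was 0.0731.

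Around the 8 members, 6 lists of pathway genes were read from the same fit, and 7 of their 117 tested probe sets passed between SHR and WKY. That is 5.98%, near the 5.06% of all probe sets, so the count is no result about these pathways, and the genes are named for their values. In the interleukin-1 list 1 of 7 tested genes passed, which is 1 of 11 probe sets or 9.09%. It was Irak1, a kinase that relays the signal of the interleukin-1 receptor, with 503.4 to 558.5 in SHR and 621.4 to 694.1 in WKY. Its log2 difference was -0.3 (SE 0.054, adjusted p = 0.00185), and its dimmer probe set gave -0.11 with an adjusted p of 0.738. The median of the 11 probe sets of this list was -0.05.

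In the tumour necrosis factor list 2 of 16 tested genes passed, 1 in each direction, and the median was 0.02. That is 11.8% of its 17 probe sets, against the same 5.06%. Birc2, a ubiquitin ligase bound to the receptor complex, rose in SHR, from 81.4 ± 10.2 in WKY to 124.6 ± 5, a log2 difference of 0.54 (SE 0.083, adjusted p = 0.000553). Ltb, which encodes the lymphotoxin beta ligand, fell to 34.6 ± 2.5 from 51.7 ± 6.5, a difference of -0.42 (SE 0.094, adjusted p = 0.0128).

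Of the 17 tested genes of NF-kappaB subunits, inhibitors and targets, 0 passed in limma, against 5.06% of all probe sets. An unadjusted p under 0.05 was reached by 0 of them and by 3208 of all 18625 probe sets. The subunit gene Rela had a difference of 0.15 (SE 0.105), Nfkb1 of -0.02 (SE 0.102) and the inhibitor gene Tnfaip3 of -0.06 (SE 0.084).

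In the list of gp130 cytokines, receptors, Jak and Stat genes 1 of 20 tested genes passed, with a median of -0.03 over 28 probe sets, of which 3.57% passed against 5.06% of all. It was Il6r, which encodes the receptor subunit that binds interleukin-6 before gp130 is engaged, and its signal fell from 62.3 ± 7.3 in WKY to 39.7 ± 9 in SHR. The log2 difference was -0.5 (SE 0.114, adjusted p = 0.013), and the arrays did not overlap. On arrays 2 to 5 of each strain the adjusted p was 0.0741. The kinase gene Jak1 had differences of -0.03 and 0.02 at its 2 probe sets, and Jak2 one of 0.22 (SE 0.132, adjusted p = 0.428).

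Of 19 tested genes that Stat3 is known to induce, 1 passed, where the median of the 22 probe sets was -0.00 and 4.55% of them passed, against 5.06% of all. It was Spp1, which encodes the secreted protein osteopontin and is expressed by activated macrophages as well. Its signal ran from 454.9 to 851.7 in SHR and from 1055.8 to 1589.6 in WKY, a log2 difference of -1 (SE 0.176, adjusted p = 0.00698). The other 18 tested genes of this list did not pass.

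In the prostaglandin list 2 of 19 tested genes passed, both lower in SHR, with a median of -0.02, which is 9.09% of its 22 probe sets against 5.06% of all. Anxa1, which encodes the phospholipase inhibitor annexin A1, was 73.4 ± 12.1 in SHR and 107.6 ± 15.3 in WKY (log2 difference -0.47, SE 0.108, adjusted p = 0.0143), and the arrays overlapped. On arrays 2 to 5 of each strain its adjusted p was 0.0725. Tbxas1, which encodes thromboxane synthase, was 73.4 ± 8.7 and 95.2 ± 6 (-0.32, SE 0.085, adjusted p = 0.0378). The call of Tbxas1 was lost without any 1 of 7 of the 10 arrays, namely arrays 3, 4 and 5 of SHR and arrays 1, 2, 3 and 5 of WKY, at adjusted p-values from 0.0591 to 0.104. Ptges, the inducible prostaglandin E synthase that acts after Ptgs2, differed by 0.01 (SE 0.149). The prostaglandin D synthase gene Ptgds ran from 195 to 3738.1 over all arrays and differed by -0.27 with an SE of 0.62.

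**Figure D4:**
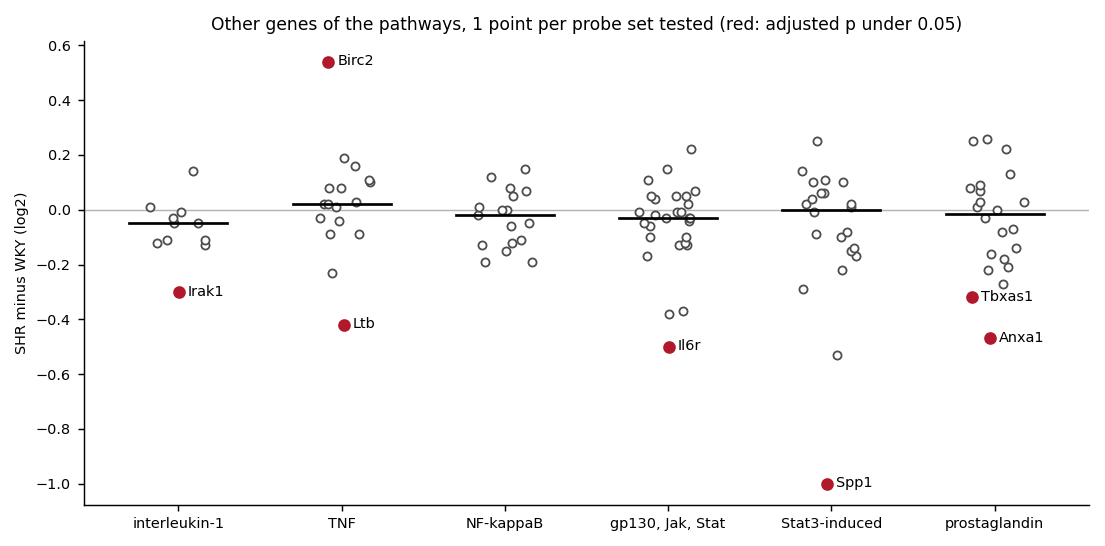
Log2 difference of SHR minus WKY for each tested probe set of the 6 pathway lists (1 point each, with a bar at the list's median), red where the adjusted p was under 0.05. The medians lie between -0.05 and 0.02, and the 7 red points run from -1 at Spp1 to 0.54 at Birc2.

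Fasting for 48 h and dehydration for 72 h gave no member probe set past the threshold. In limma 0 of 11 passed for fasted against control, where 0.0215% of all probe sets passed, and 0 of 11 for dehydrated against control, where 0.166% passed. An unadjusted p under 0.05 was reached by 4 of 11 in each, against 7.19% and 11.7% of all probe sets. Both comparisons use the same 4 control arrays, so their values are given side by side. The label text of control arrays 3 and 4 differs from that of the other control arrays. With control arrays 3 and 4 as the only controls, 0 and 2 of all 18625 probe sets passed, against 4 and 31 with all controls. That fit also rests on fewer control arrays. Leaving out a single control array gave 2 to 6 calls for fasted and 9 to 33 for dehydrated against control. The part of labelling in these comparisons was not tested.

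Tnfrsf1a had the smallest p of the members in both. It gave 167.9, 203.1, 187.6 and 190.9 on the control arrays, 140, 141.3, 132, 128.1 and 117.6 on the fasted arrays and 138.3, 141.9, 170 and 119.8 on the dehydrated arrays. All fasted arrays lay below all control arrays, a separation shown by 1 of 11 members and by 2.32% of all probe sets, while dehydrated array 3 lay within the control range. The log2 differences were -0.46 (SE 0.094, adjusted p = 0.145) after fasting and -0.37 (SE 0.099, adjusted p = 0.155) after dehydration.

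Stat3 1370224_at gave 141.3, 165.5, 199.4 and 166.5 in the controls, 144.7, 141.9, 118.9, 129.6 and 148.7 after fasting and 144.8, 113.6, 143.5 and 139.9 after dehydration. The lowest control array lay within the range of each treated group. The log2 differences were -0.26 (SE 0.1, adjusted p = 0.574) and -0.28 (SE 0.105, adjusted p = 0.306). Stat3 1371781_at differed by 0.17 (SE 0.188) and -0.02 (SE 0.198), with all 3 groups overlapping.

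Among 10 tested fibroblast and meningeal markers, 8 had negative differences after fasting and 9 after dehydration, against 49% and 52.4% of all probe sets. Their medians were -0.22 and -0.26, and 0 passed. Microglia and macrophage markers had 7 and 10 negative differences of 11, with medians of -0.04 and -0.14, and 0 passed. Neuron markers had 2 and 1 negative of 8, with medians of 0.08 and 0.12, and 0 passed. Their summed signal ran from 6201.8 to 6460.4 in controls and, without overlap, from 6604.6 to 7215.3 in dehydrated arrays, with fasted arrays at 6421.1 to 7069.9. The Gapdh log2 ratio was 0.341 ± 0.162 in controls, 0.223 ± 0.036 in fasted and 0.409 ± 0.197 in dehydrated arrays. The part of any of these in the Tnfrsf1a and Stat3 values was not tested.

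Ptgs2 was dim in these rats. It gave 46.5, 52, 30.8 and 39.6 in the controls, 34.1, 30.5, 26.8, 22.2 and 31.9 after fasting and 21, 23, 36.8 and 34.9 after dehydration. Control array 3 lay within both treated ranges. The log2 differences were -0.36 (SE 0.146, adjusted p = 0.626) and -0.38 (SE 0.154, adjusted p = 0.346).

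Nfkbia was 269.5 ± 52.4 in controls (n = 4), 205.4 ± 57.6 in fasted (n = 5) and 209.9 ± 46.1 in dehydrated arrays (n = 4). Its differences of -0.38 (SE 0.18, adjusted p = 0.697) and -0.34 (SE 0.189, adjusted p = 0.502) lay within a wide spread of arrays. Il1r1 1392946_at differed by -0.18 (SE 0.13) and -0.06 (SE 0.137), and Ptgs1 1368259_at by -0.05 (SE 0.12) and -0.14 (SE 0.127). Socs3 was 29.8 ± 12.6 in controls, 20.8 ± 7.1 in fasted and 22.1 ± 6.6 in dehydrated arrays, and again lay under the filter.

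None of the 4 Il6st probe sets passed. Probe set 1373140_at gave 104.6, 104.2, 116.6 and 106.5 in controls and 116.1, 116.5, 141.2, 144.4 and 161.2 in fasted rats, a log2 difference of 0.28 (SE 0.117, adjusted p = 0.63). Probe set 1370957_at gave 220.3, 337.9, 278.7 and 222 in controls and 372.6, 290.4, 357.5 and 271.3 in dehydrated rats, a difference of 0.28 (SE 0.121, adjusted p = 0.378). In each case the ranges overlapped. The differences of the other 3 probe sets of the gene ran from -0.06 to 0.14 after fasting and from -0.05 to -0.03 after dehydration, and whether the probe sets differ from each other was not tested.

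Dehydrated and fasted rats were also compared with each other, without the shared controls. Again 0 of 11 members passed in limma, where 0.0322% of all probe sets passed, and 1 of 11 had an unadjusted p under 0.05, against 10% of all. That was Il6st 1373140_at, at -0.32 (SE 0.117, adjusted p = 0.379). Tnfrsf1a differed by 0.09 (SE 0.094) and Stat3 1370224_at by -0.01 (SE 0.1). In the 6 pathway lists 0 genes passed in any of the 3 Sprague Dawley comparisons. At an unadjusted p under 0.05 in limma the counts per list started at 0 in each comparison. After fasting they reached 2, in lists of 21 to 27 probe sets, against 7.19% of all. After dehydration they reached 5 of 22, in the list of genes induced through Stat3, against 11.7% of all. Between the treatments they reached 6 of 21, in the prostaglandin list, against 10% of all. These counts were not tested. Il6r was 72.9 ± 10.6 in controls, 60.4 ± 6.5 after fasting and 54.1 ± 2.1 after dehydration, with adjusted p-values of 0.697 and 0.246 against the controls.

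The 5 groups can also be put in order for each gene, as a description. For Stat3 1370224_at the order of the means was WKY 170.4, control 168.2, fasted 136.8, dehydrated 135.5 and SHR 82.3, and only SHR was apart from its neighbour without overlap. For Il1r1 1392946_at it was control 67.4, WKY 65.3, dehydrated 62.6, fasted 56.3 and SHR 35, again with SHR alone apart. WKY thus lay beside the Sprague Dawley controls at these probe sets. For Ptgs2 it was WKY that stood apart, at 65.9 above control 42.2, SHR 39.3, fasted 29.1 and dehydrated 28.9, and the last 4 overlapped with their neighbours.

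For Tnfrsf1a, WKY at 197.3 and control at 187.4 lay above SHR at 153.4, dehydrated at 142.5 and fasted at 131.8, with no overlap between control and SHR. For Nfkbia the means fell from SHR at 311.6 to fasted at 205.4 with overlap at every step. At Il6st 1371926_at the means of SHR and WKY, at 225.3 and 229.3, lay below dehydrated at 292.1, control at 303.3 and fasted at 306. The fasted arrays, at 278.8 and above, overlapped with neither strain, while SHR reached 269 and WKY 255.1, above the lowest control array at 242.2. Il6st 1370957_at had the opposite order, with WKY at 368.8 and SHR at 367.4. Dehydrated at 322.9, fasted at 290.5 and control at 264.7 followed, with overlap at every step. The remaining Il6st probe sets did not set the strains apart from the Sprague Dawley groups. The label text for SHR and WKY arrays differs from that of the Sprague Dawley arrays, and among the controls it is not uniform either. Strain and labelling thus cannot be told apart in any order that sets the 2 sets of arrays side by side.

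Within 3 of the 5 groups, Ptgs2 and Nfkbia put the arrays in the same order. In SHR the arrays in falling order of Nfkbia were 423.6, 359.8, 283.4, 256.4 and 234.6, and their Ptgs2 signals were 52.4, 45.4, 43.8, 29.8 and 25.1. In WKY Nfkbia was 336.5, 318.5, 259.5, 227.7 and 208.1, and Ptgs2 was 77.1, 75.1, 69.9, 54.2 and 53.2 on the same arrays. In the dehydrated group Nfkbia was 251.3, 244.3, 189.1 and 154.7, and Ptgs2 was 36.8, 34.9, 23 and 21. The order was identical in these 3 of the 5 groups and not in the controls or the fasted rats. In SHR and in WKY alike, arrays 1 and 2 were highest for both genes, and arrays 4, 5 and 3 followed. These 2 groups may thus not be independent cases, and what their arrays shared was not tested. In the controls the array with the highest Ptgs2 signal, 52, had the lowest Nfkbia signal, 204.8.

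After each group was centred on its mean, Nfkbia and Ptgs2 correlated at r = 0.68 over the 23 arrays, which share their scaling and are not independent of group. This was the highest value among the 55 pairs of tested member probe sets. The Gapdh 3′ to 5′ ratio ran exactly opposite to Nfkbia in the controls, and in part in other groups. In falling order of Nfkbia its log2 value was 0.041, 0.145, 0.405, 0.235 and 0.214 in SHR. In WKY it was 0.105, 0.095, 0.031, 0.195 and 0.206, and in the dehydrated group 0.339, 0.214, 0.68 and 0.4. In the fasted group it was 0.19, 0.242, 0.244, 0.258 and 0.178. The part of this ratio in the order of the arrays was not tested. Other pairs on the same centred scale were Il1r1 1392946_at with Il6st 1370957_at at 0.67 and Il1r1 1392946_at with Nfkbia at -0.64.

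**Figure D5:**
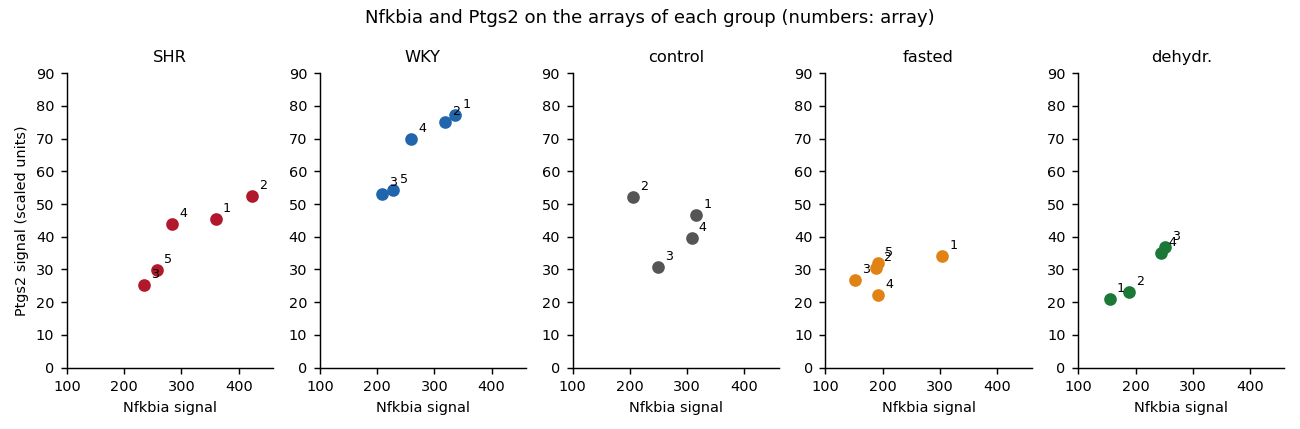
Ptgs2 signal (vertical axis, scaled units) against Nfkbia signal (horizontal axis, scaled units, from 100) in each group, 1 point per array with its number. In SHR, WKY and dehydrated arrays the points rise from lower left to upper right without an exception, with the WKY points highest at 53.2 to 77.1.

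The genes most like each member across the 23 arrays are given as a description, with Pearson's r on log2 signals over all arrays and after centring on group means. Stat3 1370224_at was most like Mrpl4, a mitochondrial ribosomal protein gene (r = 0.89, centred 0.52), Prune1 (0.88, centred 0.43) and Amhr2 (0.87, centred 0.41). Il1r1 was most like Ythdf2 (0.81, centred 0.28), Psma1 (0.81, centred 0.55) and Prss35 (0.8, centred -0.02), so that the likeness to Prss35 lay in the group means alone. Ptgs2 had the closest neighbours, Gstm5 (0.94, centred 0.85), Tiparp (0.9, centred 0.78) and Tspo (0.9, centred 0.74), and kept them within groups.

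Nfkbia was most like Scand1 (0.86, centred 0.85), Arl10 (0.84, centred 0.76) and Ndufb1 (0.84, centred 0.77). Tnfrsf1a was most like G0s2 (0.86, centred 0.62), Pola2 (0.81, centred 0.64) and Unc93b1 (0.81, centred 0.61). Il6st 1370957_at was most like Ddx6 (0.86, centred 0.74), Ggct (0.84, centred 0.83) and Serpini1 (0.84, centred 0.66). Ptgs1 1368259_at had the loosest neighbours, with Serinc3 at 0.71 and Srpra and Maob at 0.68. No member was among the 3 neighbours of another member, and Socs3 was too dim to be placed.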

How the data were processed

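Each of the 23 arrays measured RNA from 5 pooled animals, amplified with a MessageAmp II kit per the labels' protocols. The authors deposited 1 linear intensity per probe set and array, made with GCOS 1.2 per the submitters' processing notes. Neither its settings nor a genome build is given in the sources used here. The mean after removing 2% of values at each end was 100 on every array, so the signals were used as deposited. Precision is limited by the number of arrays. A sample was found for every column.

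Probe sets were named from the platform annotation (20832 with 1 symbol, 436 with several, 9780 with none, 57 controls), and all 8 members were found in the RefSeq gene table. Signals were analysed as log2(signal + 16), so that differences of dim probe sets are understated. Each fit kept 18625 probe sets, after removal of controls and of those under the 40th percentile of mean log2 value. SHR and WKY (10 arrays) and the 13 Sprague Dawley arrays were fitted apart with limma 3.58.1 in R 4.3.3 (lmFit, eBayes with trend and robust). Tests were two-sided, with Benjamini-Hochberg adjustment over all probe sets kept and a threshold of 0.05. The pipeline was tested on simulated data. Tables and the permutation test used pandas 2.3.3 and numpy 2.4.6 in Python 3.11.15, and the plots matplotlib 3.10.9.

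The lists came from general knowledge. The members, the 6 pathway lists, the cell markers and the tests were chosen with earlier results of these data known. Named are all member probe sets, up to 5 genes per list and comparison that passed, by smallest p, and fixed genes where kept (Il6r, Jak1, Jak2, Rela, Nfkb1, Ptges, Ptgds and Tnfaip3; Il1rap, Tnfrsf1b, Ptger3 and Ptger4 had no tested probe set). Alternatives changed the pseudocount to 1 or 64, the filter to none or the 60th percentile, and the scaling to quantile normalization. Others used eBayes without trend and robust, all 23 arrays in 1 model, the Gapdh ratio as covariate or the replicate number as a block. The rest used control arrays 3 and 4 as the only controls, used only the groups compared, or left out each array in turn. A filter on the mean linear signal was run first and replaced by the mean of log2 values after its results were seen, and is kept as an alternative.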

Additional observations from a re-analysis of the deposited data

Results flagged for a closer look

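In 5 of 75 groups of arrays, 15 probe sets in 5 groups each, 1 array lay far from the rest of its group by Dixon's test at the 95% level, a test that chance passes in about 5% of groups.

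Nfkbia was 303.8 on fasted array 1 and 151.5 to 191.7 on the other 4. Stat3 1370224_at was 113.6 on dehydrated array 2, where the other 3 lay between 139.9 and 144.8. Il6st 1373140_at was 100 on SHR array 1 and 119.8 to 127 on the others. At dim probe sets, Il1r1 1369255_at was 5.2 on dehydrated array 1 against 11.1 to 11.5, and Ptgs1 1381806_at was 7.8 on control array 3 against 21.3 to 23.2. None of these arrays belongs to a comparison in which that probe set passed the threshold.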

How the results depend on the processing

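Stat3 1370224_at and Il1r1 1392946_at were lower in SHR past the threshold in every alternative that tested them, with adjusted p up to 0.00146 and 0.0055. A 60th percentile filter left 7 member probe sets to test, of which 1 passed, because Il1r1 and Ptgs2 were no longer tested. Ptgs2 kept its sign and lost its call with the Gapdh covariate (-0.49, adjusted p = 0.0731), on arrays 2 to 5 of each strain (-0.58, 0.0611, an alternative chosen after seeing the data), and without array 3 or 5 of SHR or array 1 or 2 of WKY. Tnfrsf1a passed in 3 of 21 alternatives and missed the threshold in the others, with a limma adjusted p up to 0.156. It passed with all 23 arrays in 1 model (adjusted p = 0.0334), without WKY array 3 (0.0161) and with the replicate block. The counts of 0 in the 3 Sprague Dawley comparisons held in every setting run, the filter on the mean linear signal included, which also left the same 3 calls between the strains. The difference between the Stat3 probe sets kept its sign in 13 alternatives, with p up to 0.0397. Of 1061 single values under alternatives, 1037 stayed on the same side of the threshold, 21 lost a call, 3 gained one and 0 called values changed sign, while 61 uncalled values did, in 18 of 52 results. The cause of these shifts was not tested.

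Replicate numbers were shared by the titles only. Deviations of same-numbered arrays 2 to 5 of SHR and WKY correlated at 0.273, 0.024, -0.006 and 0.035, so the numbers were not taken as pairs. Deviations of arrays 1 and 2 correlated between the strains at 0.076 to 0.273, and those of arrays 3 to 5 at -0.006 to 0.169. Across these 2 sets the values were negative, from -0.212 to -0.036. Array 1 of each strain holds no number in its title and was numbered by its place in the series. The source of this shared pattern was not tested. With the replicate block in limma, on arrays 2 to 5 of each strain, 4 member probe sets passed between the strains. These were the 3 above and Tnfrsf1a (-0.36, adjusted p = 0.0363), while Il6r (0.0549), Ltb (0.0708) and Tbxas1 (0.063) did not pass. On the same arrays without the block Il6r (0.0741) and Anxa1 (0.0725) missed the threshold. Tbxas1 also missed it with no filter (0.0536), in the model of 23 arrays (0.0919) and with the Gapdh covariate (0.116). The block changed no member call among the Sprague Dawley comparisons. Over all probe sets it left 3 calls for fasted against control, 15 for dehydrated against control and 1 for dehydrated against fasted. Without it these counts were 4, 31 and 6. Signal near background limits Socs3 and the 3 other dim probe sets, and what can be read from them.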
